A study of Mus musculus with 4 samples.

Results

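The mitochondrial ribosomal protein genes of mouse macrophages were examined in RAW 264.7 cells, a macrophage cell line derived from a mouse tumour. Their members were the protein-coding genes of the count tables whose symbol starts with Mrpl or Mrps followed by a digit. That rule found 78 of 54532 genes, 49 named Mrpl and 29 named Mrps, and 77 of them were measured, meaning a mean CPM (reads scaled to library size) of 1 or more over the libraries. Polyadenylated RNA had been sequenced from 4 cultures: wild type untreated, Hnrnpul1-/- untreated, wild type treated with LPS (100 ng/ml for 10 h), and Hnrnpul1-/- treated in the same way. LPS, lipopolysaccharide from the outer membrane of bacteria, activates macrophages through TLR4. Hnrnpul1 encodes a nuclear RNA-binding protein of the hnRNP U family. Each group held 1 library, and the labels do not say whether the knockout is 1 clone.

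Mitochondria translate the few messenger RNAs of their own genome on a ribosome of their own. Its ribosomal RNAs are made inside the organelle, while all its proteins are encoded in the nucleus, made in the cytosol and imported. The large subunit (mostly Mrpl proteins) holds the peptidyl transferase centre, and the small subunit (mostly Mrps proteins) binds the messenger RNA and decodes it. Some members have a counterpart in bacterial ribosomes and others exist in mitochondria alone. The products are core subunits of the respiratory chain and the ATP synthase. Macrophages exposed to LPS are known to shift energy metabolism from respiration towards glycolysis. The symbols are not a perfect guide: Mrps30 and Mrps18a sit in the large subunit, and Mrps36 is a component of the alpha-ketoglutarate dehydrogenase complex.

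The libraries held 17162124, 17361615, 17045432 and 17909549 counts in the order given above. Hnrnpul1 had 5086 and 3114 reads in the wild-type libraries and 447 and 350 in the knockout ones. Of 10 macrophage markers, 9 were at 1 CPM or more in every library. All markers of T cells, epithelium and erythroid cells were at 0, and those of B cells, fibroblasts and neutrophils summed to at most 3.97, 0.155 and 0.497 CPM. Members took 0.522% and 0.511% of counts in the untreated wild-type and knockout libraries and 0.375% and 0.374% in the LPS-treated ones. After edgeR's TMM scaling, which allows for a few genes taking a large share of the reads, they summed to 4719, 4581, 4158 and 4162 CPM. In RNA from a whole culture, fewer cells with a transcript and less transcript per cell cannot be told apart.

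To show the regulatory sequence beside the values, the promoters at either end of the LPS response are printed below. They belong to the 3 members with the highest and the 3 with the lowest mean LPS ratio among those in the RefSeq promoter table (build GRCm38.p6), which held 69 of the 78 members; Mrpl13 was not among them. Each line gives the 150 bases before the RefSeq start, read 5′ to 3′ on the gene's strand. Capitals mark matches, on either strand, to the core motifs searched: NRF1 (GCATGCGC), ETS (CCGGAAG), YY1 (AAGATGGC), E-box (CACGTG), CRE (TGACGTCA) and SP1 (GGGCGG). Overlapping matches were kept.
Mrpl52 (chr14:54426759-54426908, GRCm38.p6, plus strand): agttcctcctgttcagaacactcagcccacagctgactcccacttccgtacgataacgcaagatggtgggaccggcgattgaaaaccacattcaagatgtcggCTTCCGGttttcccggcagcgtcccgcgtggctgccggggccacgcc
Mrpl30 (chr1:37890327-37890476, GRCm38.p6, plus strand): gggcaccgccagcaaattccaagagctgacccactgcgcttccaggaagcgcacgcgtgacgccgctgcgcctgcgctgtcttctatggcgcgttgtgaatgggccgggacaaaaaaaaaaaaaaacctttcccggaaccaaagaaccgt
Mrps18b (chr17:35916441-35916590, GRCm38.p6, minus strand): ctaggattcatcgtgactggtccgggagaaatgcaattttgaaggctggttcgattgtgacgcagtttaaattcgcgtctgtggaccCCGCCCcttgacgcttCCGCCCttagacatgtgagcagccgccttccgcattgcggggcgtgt
Mrpl42 (chr10:95501950-95502099, GRCm38.p6, minus strand): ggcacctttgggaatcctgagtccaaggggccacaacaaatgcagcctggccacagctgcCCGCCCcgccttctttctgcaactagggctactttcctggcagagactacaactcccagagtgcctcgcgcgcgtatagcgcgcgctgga
Mrpl36 (chr13:73330859-73331008, GRCm38.p6, plus strand): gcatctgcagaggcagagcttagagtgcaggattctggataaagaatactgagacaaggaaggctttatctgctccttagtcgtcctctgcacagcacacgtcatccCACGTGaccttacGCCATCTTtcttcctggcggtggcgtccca
Mrps6 (chr16:92058186-92058335, GRCm38.p6, plus strand): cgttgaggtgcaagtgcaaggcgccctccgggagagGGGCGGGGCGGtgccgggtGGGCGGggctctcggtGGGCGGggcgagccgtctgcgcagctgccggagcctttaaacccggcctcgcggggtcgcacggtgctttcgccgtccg
The Mrpl52 sequence holds an ETS match, that of Mrpl30 none of the motifs and that of Mrps18b 2 SP1 matches. Mrpl42 has an SP1 match, Mrpl36 an E-box and a YY1 match, and Mrps6 4 SP1 matches. None of the motifs is held by all 6. The RefSeq start can differ from that of the counted gene. The Mrpl36 stretch lies inside the span of the counted gene, which begins at chr13:73328513. That of Mrps6 runs past the start of the counted gene at chr16:92058270.

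In the whole RefSeq windows, from 250 bases before to 50 after the start, 26 of the 69 members (37.7%) held an ETS match, against 8.86% of all 32851 promoter windows and 22.5% of the 8255 measured protein-coding genes in the table. The shares of members and of measured genes count a gene once if any of its windows held the motif, while the share of all windows counts each window. YY1 matches stood in 12 members (17.4%, against 2.75% and 5.94%) and NRF1 matches in 8 (11.6%, against 2.71% and 6.63%). ETS factors such as GABP, NRF1 and YY1 are known regulators of nuclear genes for mitochondrial proteins. SP1 matches were found in 34 members (49.3%, against 35.7% and 70.2%), E-box matches in 5 (7.25%, against 7.15% and 12.3%) and CRE matches in 2 (2.90%, against 1.79% and 3.91%). The median of the members' mean LPS log2 ratios was -0.07 with an ETS match and -0.22 without, -0.01 with an NRF1 match and -0.22 without, and -0.24 with an SP1 match and -0.09 without. For YY1 the medians were -0.13 and -0.16, for the E-box -0.22 and -0.15, and for CRE, with 2 members, -0.45 and -0.16. A match is a run of letters and says nothing of binding, and these medians are descriptions with no test.

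Per length, the members stood above most genes. Their median deposited FPKM (fragments scaled to gene length and library size) was 21.4 and 20.7 in the untreated wild-type and knockout libraries and 18.4 and 18.2 in the LPS-treated ones. The median over all measured protein-coding genes lay between 7.95 and 8.05 FPKM in the 4 libraries. In untreated wild type the 4 highest members were Mrps21 (98.8 FPKM), Mrpl34 (96.3), Mrpl12 (93.8), which forms the stalk that recruits translation factors, and Mrpl43 (67.9). The lowest measured members were Mrpl33 (3.70 FPKM), Mrpl48 (4.41), Mrps30 (5.66) and Mrps35 (6.36). FPKM divides by the annotated exon length, so a gene with long, little used annotated exons takes a low value. After LPS the order at the top changed: Mrpl52 went from 59.6 and 59.9 FPKM in the untreated libraries to 123 and 139, the highest of all members in both LPS libraries.

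Mrpl53, a component of the large subunit, was listed at 0 reads in all 4 libraries. A count of 3 would have been 0.155 to 0.195 CPM. In the GENCODE annotation of the same build, 88.0% of its 790 exon bases also belong to Gm42688 and Ccdc142os, which leaves 95 bases of its own. Gm42688 had 25, 22, 12 and 7 reads and Ccdc142os 12, 11, 5 and 2, in the order of the libraries above. Reads in shared exons can go uncounted. Whether that accounts for the 0 was not tested. Mrps34 and Mrps25, with 77.8% and 69.8% of their exon bases shared, were counted at 518 and 1047 reads in untreated wild type. No value is given for Mrpl53 in what follows.

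With LPS the members as a set were somewhat lower, and single members went different ways. In wild type the median log2 ratio of LPS to untreated was -0.19 over the 77 measured members and -0.0039 over all genes measured, and in the knockout it was -0.15 and -0.02. Members ranged from -1.61 (Mrps6) to 1.04 (Mrpl52) in wild type and from -1.61 to 1.20 in the knockout, again from Mrps6 to Mrpl52. A 95% counting interval (exact, Clopper-Pearson) below 0 was found in 42 members in wild type (54.5%, against 36.3% of all genes) and in 37 in the knockout (48.1%, against 38.2%). The interval lay above 0 in 14 members in wild type (18.2%, against 37% of all genes) and in 15 in the knockout (19.5%, against 37.4%).

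Large changes were few. In wild type 1 member was at least 2-fold higher with an interval above 0 (11.2% of all genes were) and 3 were at least 2-fold lower (10.1% of all genes). In the knockout these numbers were 1 (11.6% of all genes) and 4 (12% of all genes). At 1.5-fold, 3 members were higher and 10 lower in wild type (18.9% and 19.2% of all genes), and 2 were higher and 10 lower in the knockout (19.3% and 21% of all genes). At 2-fold, Mrpl52 was the member on the high side in both genotypes. Mrps6, Mrpl36 and Mrpl42 were on the low side in both, and Mrpl18 joined them in the knockout. The SD of the members' log2 ratios was 0.42 in wild type and 0.43 in the knockout, against 1.28 and 1.31 over all genes.

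An additive model over the 4 libraries (edgeR's quasi-likelihood test, Benjamini-Hochberg adjusted over 11640 genes) tested LPS with the genotypes standing in for replicates, so its spread is that between the LPS ratios of the genotypes and not between repeated cultures. By it 30 members fell (39%, against 30.1% of all genes), 9 rose (11.7%, against 30.2%) and 38 did not pass. DESeq2 called 19 members lower (19.9% of all genes) and 6 higher (22.8% of all genes), without Mrpl35, Mrpl44 and Mrpl54. On total counts in place of TMM, the median over all genes shifted to -0.30 in wild type and -0.33 in the knockout and that of the members to -0.49 and -0.46, as a change of scaling moves every gene's ratio by the same amount. Under that scaling 60 members fell (49.7% of all genes did) and 3, Mrpl52, Mrpl30 and Mrpl13, rose (18.1% of all genes).

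**Figure D1:**
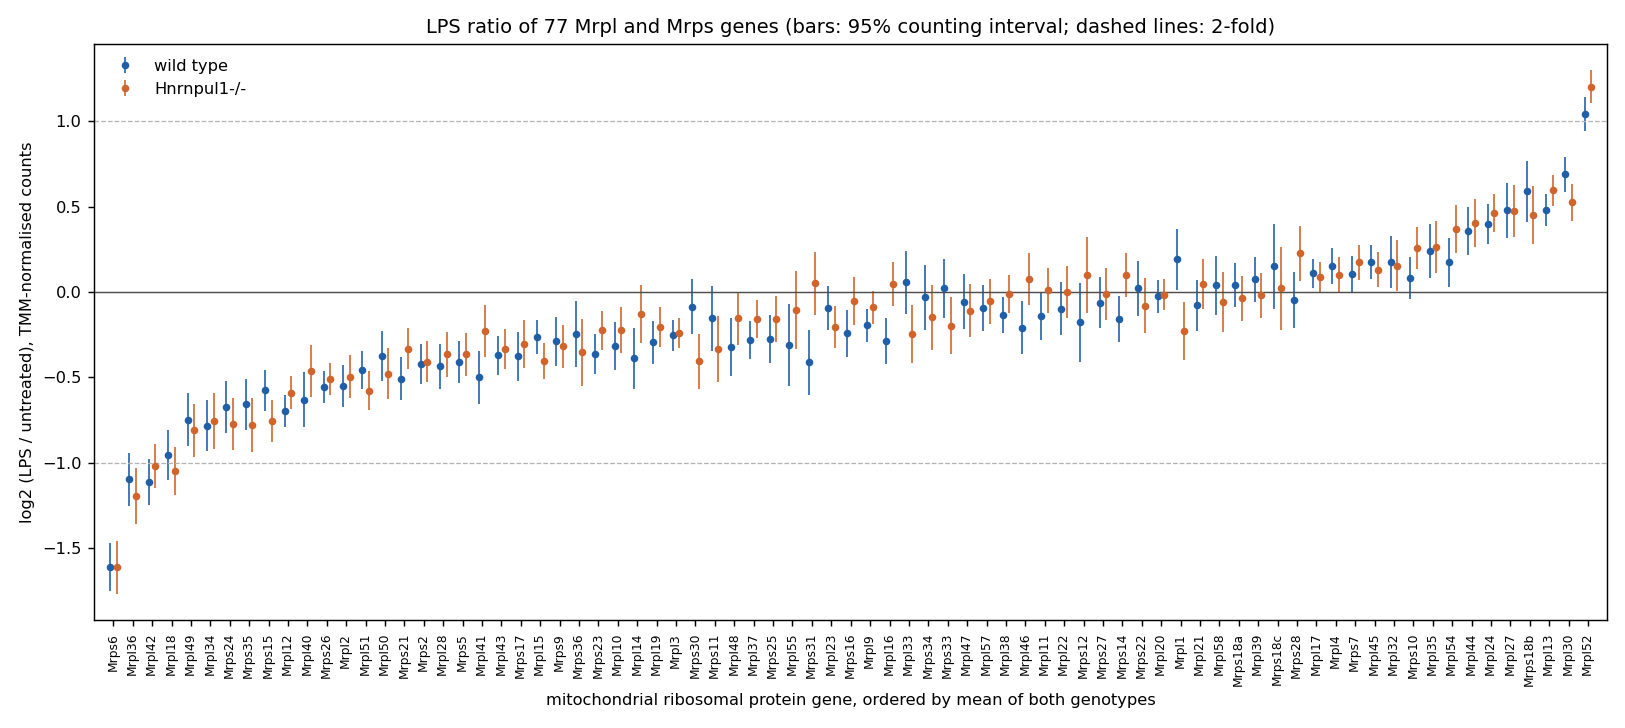
Log2 ratio of LPS to untreated TMM-normalised counts (vertical axis) for each of the 77 measured members (horizontal axis, ordered by the mean of both genotypes) in wild type (blue) and Hnrnpul1-/- (orange), with 95% counting intervals as bars and 2-fold as dashed lines. Most points lie between the dashed lines, Mrps6 is lowest at -1.61 in both genotypes and Mrpl52 highest at 1.04 and 1.20.

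Mrps6, a small subunit protein with a bacterial counterpart, showed the largest drop. Its reads numbered 2013 and 1580 in the untreated wild-type and knockout libraries and 533 and 430 in the LPS-treated ones, which is 106, 81.6, 34.7 and 26.7 CPM. Both LPS libraries were far below both untreated ones. How many of all genes share such an order, here and for the members below, was not counted. By a looser condition, LPS ratios were below 0 in both genotypes in 5161 of 11637 genes measured. They were above 0 in both in 4979. With LPS the gene stood at 32.8% of its untreated level in wild type and 32.7% in the knockout (log2 ratios of -1.61, interval -1.75 to -1.47, and -1.61, interval -1.77 to -1.46; adjusted p = 1.03e-06 in the additive edgeR test). The gene lies at chr16:92058270-92112227 (GRCm38, plus strand), and Slc5a3, a myo-inositol transporter gene, lies inside that span on the same strand. Of the 1533 exon bases of Mrps6, 305 are shared with Slc5a3 or the gene model AC144408.3. Slc5a3 itself had 6913, 4757, 1120 and 621 reads, log2 ratios of -2.32 and -2.67 with LPS. How far reads of either gene were counted for the other was not tested.

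Mrpl36 (large subunit, with a bacterial counterpart, chr13:73328513-73332178, plus strand) had 1214 and 1151 reads untreated and 459 and 419 with LPS. It thus stood at 46.8% of the untreated level in wild type and 43.8% in the knockout (log2 -1.10 and -1.19, adjusted p = 1.36e-05, edgeR). Mrpl42 (large subunit, mitochondria-specific, chr10:95480805-95501940, minus strand) had 86.5 and 86.1 CPM untreated and 40.0 and 42.5 with LPS. Its genotypes were nearly alike in each treatment, and its log2 ratios were -1.11 and -1.02 (adjusted p = 9.66e-06, edgeR). No other gene of the table overlaps Mrpl42.

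Mrpl18 (large subunit, with a bacterial counterpart, chr17:12911349-12916345, minus strand) had 70.6 and 74.2 CPM untreated and 36.5 and 35.9 with LPS, log2 ratios of -0.95 and -1.05 (adjusted p = 1.80e-05, edgeR). The gene overlaps Tcp1, a chaperonin gene on the other strand, by 645 bases of span and 141 of exon. Tcp1 had 7394, 7866, 6457 and 7196 reads and log2 ratios of 0.11 and 0.14, so the pair moved apart. Since the strand setting of the counting is unknown, reads of such a pair cannot be told apart where their exons overlap.

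Mrpl34, one of the highest members per length and free of overlaps, had 60.6, 47.7, 35.2 and 28.3 CPM, so that both LPS libraries were below both untreated ones (log2 -0.78 and -0.75). Mrpl49 had 55.1 and 55.2 CPM untreated and 32.8 and 31.5 with LPS (log2 -0.75 and -0.81), and Mrpl12 had 149 and 128 CPM untreated and 92.1 and 84.8 with LPS (log2 -0.69 and -0.59). All 3 passed the additive edgeR test (adjusted p = 0.000130, 0.000119 and 0.000128). Mrps35 (log2 -0.66 and -0.78) and Mrps15 (log2 -0.57 and -0.76) also fell in that test (adjusted p = 0.000215 and 0.000190).

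Mrpl52, a mitochondria-specific protein of the large subunit, moved the other way. The gene (chr14:54426909-54429756, plus strand) overlaps no other gene of the table. It had 1303 and 1340 reads in the untreated wild-type and knockout libraries and 2169 and 2565 in the LPS-treated ones, or 68.6, 69.2, 141 and 159 CPM. Untreated, the genotypes were level, and both LPS libraries were above both untreated ones. The LPS level was 2.06-fold higher in wild type (log2 1.04, interval 0.94 to 1.14) and 2.30-fold higher in the knockout (log2 1.20, interval 1.11 to 1.30), with an adjusted p of 6.83e-06 in the additive edgeR test. On total counts the log2 ratios were 0.75 and 0.89, below 2-fold.

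Next in order came Mrpl30, a large subunit protein with a bacterial counterpart, at 70.0 and 66.7 CPM untreated and 113 and 96.0 with LPS (log2 0.69 and 0.53, adjusted p = 0.000252, edgeR). Mrpl13, also of the bacterial core of the large subunit, had 90.2 and 89.9 CPM untreated and 126 and 136 with LPS (log2 0.48 and 0.60, adjusted p = 0.000366, edgeR). Mrps18b, a mitochondria-specific protein of the small subunit, had 24.9 and 28.1 CPM untreated and 37.5 and 38.4 with LPS (log2 0.59 and 0.45, adjusted p = 0.00257, edgeR). In each of these genes both LPS libraries were above both untreated ones.

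The other 5 members that rose were Mrpl27 (log2 0.48 in each genotype), which reaches the peptidyl transferase centre, Mrpl24 (0.40 and 0.46), Mrpl44 (0.36 and 0.40), Mrpl54 (0.17 and 0.37) and Mrpl35 (0.24 and 0.26). On total counts none of these 5 passed. Mrpl44 overlaps Wdfy1 on the other strand by 126 bases, and Wdfy1 was higher with LPS (log2 1.36 and 1.26). Mrpl27 overlaps Eme1 by 198 bases, and Eme1 was lower (log2 -1.20 and -1.61).

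**Figure D2:**
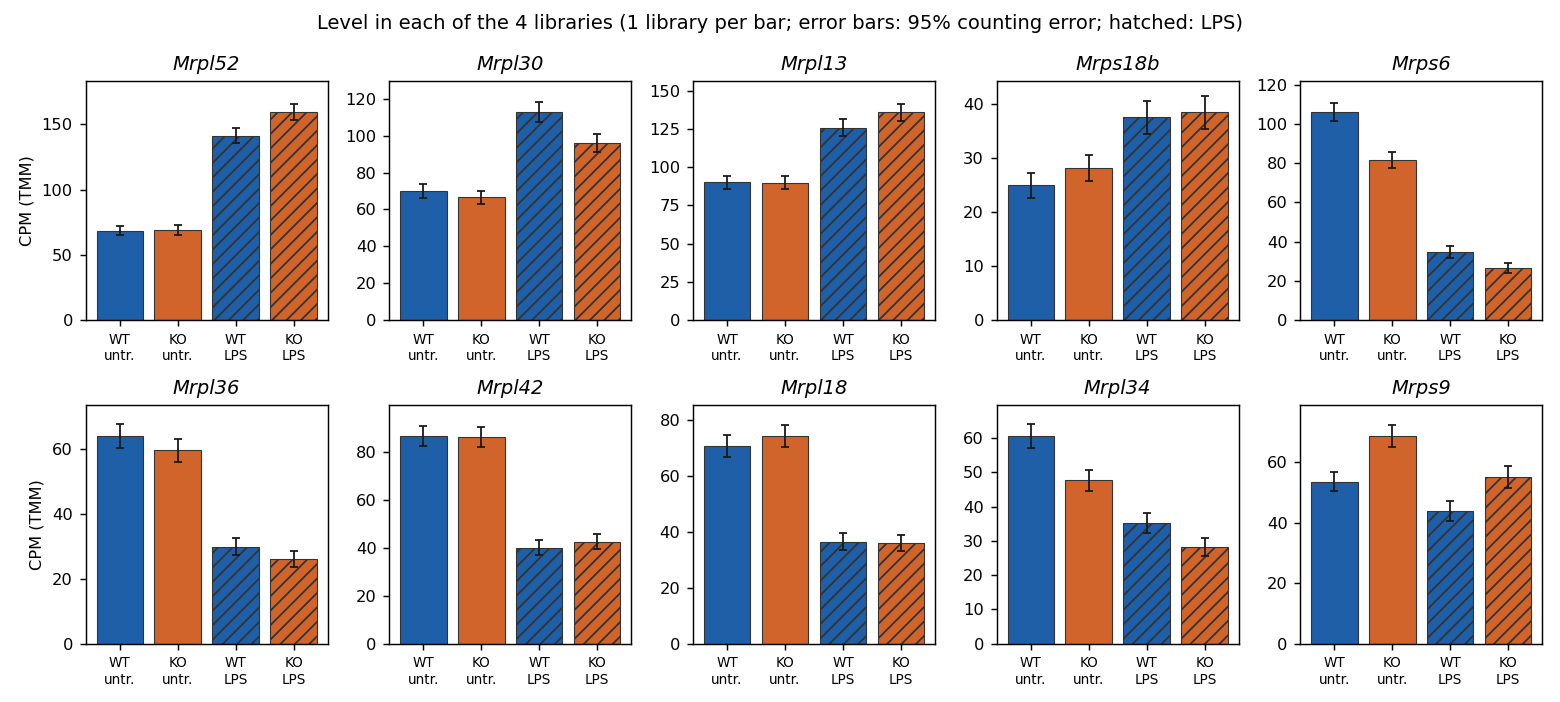
TMM-normalised CPM (vertical axes, starting at 0) of 10 members in each of the 4 libraries, 1 library per bar, wild type in blue, Hnrnpul1-/- (KO) in orange, LPS hatched, with 95% counting error as error bars. Mrpl52, Mrpl30, Mrpl13 and Mrps18b are higher in both LPS libraries, Mrps6, Mrpl36, Mrpl42, Mrpl18 and Mrpl34 lower, and Mrps9 is higher in the knockout in each treatment.

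Sorted by role, some members of every class fell in the additive test, in which 30.1% of all genes fell and 30.2% rose. Of the 30 large subunit members with a bacterial counterpart, 10 fell, 5 rose and 15 did not pass the additive test, with medians of -0.12 in wild type and -0.11 in the knockout. Of the 20 measured mitochondria-specific members of the large subunit, 8 fell, 3 rose and 9 did not pass, with medians of -0.17 and -0.11. Among the 15 small subunit members with a bacterial counterpart 8 fell and 7 did not pass, and the medians were -0.29 and -0.32. Among the 11 mitochondria-specific small subunit members 3 fell, 1 rose and 7 did not pass, with medians of -0.06 and -0.15. Differences between the classes were not tested. Mrps36, the member that is not a ribosomal protein, also fell (log2 -0.24 and -0.35, adjusted p = 0.0428, edgeR).

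The 3 Mrps18 paralogs, which take different places in the mitochondrial ribosome, differed in their values. Mrps18b rose, as given above. Mrps18a had 57.7, 55.0, 59.3 and 53.7 CPM (log2 with LPS 0.04 and -0.04). Mrps18c, with 14.9, 16.0, 16.5 and 16.3 CPM, had log2 ratios of 0.15 (interval -0.10 to 0.40) and 0.02 (interval -0.22 to 0.27). Neither passed the additive test (adjusted p = 0.984 and 0.576, edgeR).

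The LPS ratios of the genotypes come from pairs of libraries that share none, and across the 77 members they ran together (Pearson's r 0.93, Spearman's rho 0.85, across genes, which are not independent replicates). Over all genes measured the same values were 0.94 and 0.89. The interval was below 0 in both genotypes in 31 members (31.2% of all genes were) and above 0 in both in 12 (31.9% of all genes). Mrpl1 was the 1 member of opposite signs with both intervals excluding 0 (1.12% of all genes were), at 0.19 (interval 0.01 to 0.37) in wild type and -0.23 (interval -0.40 to -0.06) in the knockout. With 28.8, 35.2, 32.9 and 30.0 CPM, its untreated wild-type library was the lowest and its untreated knockout library the highest. On total counts its wild-type ratio was -0.11, so the opposition depends on the scaling.

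**Figure D3:**
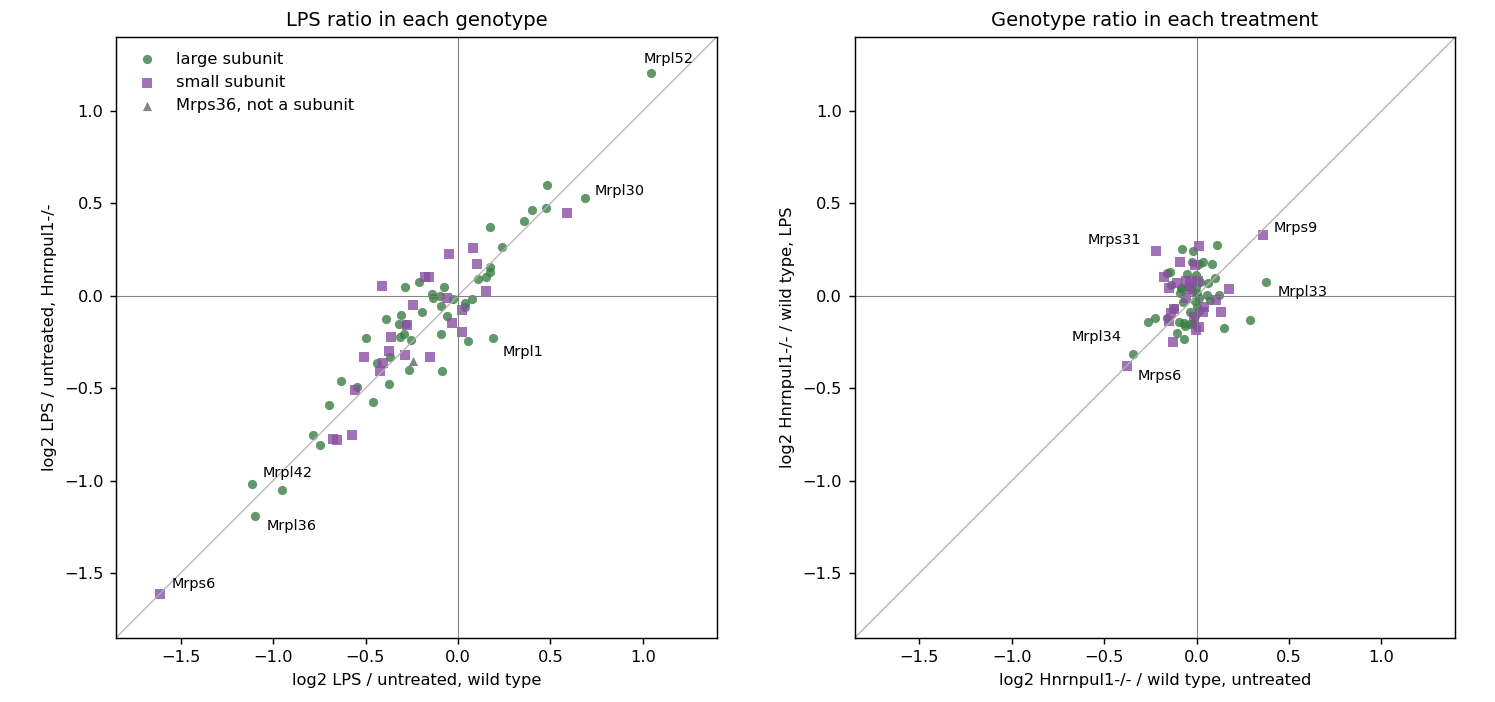
Left, log2 ratio of LPS to untreated in wild type (horizontal) and in Hnrnpul1-/- (vertical); right, log2 ratio of Hnrnpul1-/- to wild type in untreated (horizontal) and LPS-treated (vertical) cells, for the 77 measured members on the same scales (green circles, large subunit; purple squares, small subunit; grey triangle, Mrps36). The LPS ratios spread along the diagonal from -1.61 to 1.20, while the genotype ratios stay between -0.38 and 0.38.

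Loss of Hnrnpul1 went with small differences in these genes. In untreated cells the members' knockout to wild-type log2 ratios had a median of -0.02, against 0.01 over all genes, and in LPS-treated cells 0.01 and 0.0013. No member differed by 2-fold in either treatment. Over all genes the untreated comparison had 1.16% at least 2-fold higher and 0.864% lower, and the LPS comparison 1.66% and 1.83%. Untreated, the interval was above 0 in 5 members (6.49%, against 15.9% of all genes) and below 0 in 14 (18.2%, against 15.3%). With LPS it was above 0 in 11 (14.3%, against 20.2%) and below 0 in 14 (18.2%, against 20.1%).

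The additive edgeR test of genotype, in which the treatments stand in for replicates, passed 0 members in either direction, against 0.988% of all genes higher and 0.928% lower. At an unadjusted p under 0.05 it held 5 members (13.2% of all genes), and DESeq2's held 2 (5% of all genes) with 0 after adjustment. The 5 were Mrps6, Mrps9, Mrpl34, Mrpl38 and Mrpl12. Untreated and LPS-treated genotype ratios, across the members, gave a Pearson's r of 0.32 and a Spearman's rho of 0.20, against 0.44 and 0.28 over all genes.

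Mrps9, a small subunit protein with a bacterial counterpart, was the 1 member with an interval above 0 in both treatments (6.37% of all genes were). Wild type and knockout had 53.6 and 68.7 CPM untreated, then 43.9 and 55.1 with LPS, which put the knockout at 128% and 125% of wild type (log2 0.36 and 0.33, adjusted p = 0.0831, edgeR). The interval was below 0 in both treatments in 6 members, a share near the 7.19% of all genes: Mrps6, Mrpl34, Mrpl12, Mrpl38, Mrps2 and Mrps35. Mrps6 was lower by much the same size in each treatment (log2 -0.38 in each, adjusted p = 0.0595, edgeR). With genes of low counts kept in the fit it was the 1 member that passed. Of the 21612 genes in that fit, 244 were lower and 219 higher. Slc5a3, which shares exon bases with it, was lower in the knockout too (log2 -0.57 and -0.92). Mrpl34 was at 78.7% and 80.4% (log2 -0.35 and -0.32, adjusted p = 0.127, edgeR).

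Mrps30 and Mrps31 had genotype ratios of opposite sign in the treatments, with all intervals excluding 0 (3.73% of all genes did). Mrps31, of the small subunit, had 32.5 and 27.9 CPM untreated and 24.4 and 28.9 with LPS. The knockout was thus lower untreated (log2 -0.22) and higher with LPS (log2 0.24). Mrps30, of the large subunit, had 39.1, 43.3, 36.9 and 32.7 CPM, higher in the knockout untreated (log2 0.15) and lower with LPS (log2 -0.17). Its intervals only just exclude 0 (0.0013 to 0.29 untreated, -0.35 to -0.00057 with LPS). With no filter the members' untreated median moved from -0.024 to -0.034, and every ratio moved by the same amount. The untreated interval of Mrps30 then included 0, so its opposition by the interval depends on the scaling. Mrpl33 was higher in the knockout untreated (28.1 against 36.5 CPM, log2 0.38) and close to wild type with LPS (29.2 against 30.8 CPM, log2 0.07). With LPS, Mrps14 (48.7 against 58.8 CPM, log2 0.27) and Mrpl14 (26.5 against 31.4 CPM, log2 0.24) were also higher in the knockout by the interval. Untreated, so was Mrpl23 (60.4 against 65.6 CPM, log2 0.12, interval 0.0025 to 0.24), while Mrps28 was lower (37.5 against 33.2 CPM, log2 -0.17). The interval of Mrpl23 only just excludes 0, and with no filter it no longer did.

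The interaction, the LPS log2 ratio in the knockout less that in wild type, had a median of 0.04 over the members and -0.01 over all genes. Its counting interval was above 0 in 10 members (14% of all genes were), below 0 in 5 (15.8% of all genes) and spanned 0 in 62. The 4 largest were those of Mrps31 (0.46, interval 0.20 to 0.72), Mrpl1 (-0.42, interval -0.66 to -0.18), Mrpl16 (0.33, interval 0.15 to 0.52) and Mrps30 (-0.32, interval -0.54 to -0.10). Mrpl16 had 59.0, 55.9, 48.4 and 57.8 CPM, so its wild-type LPS library was the lowest. With 1 library per group these intervals cover counting error only, and no replicate test of an interaction could be made.

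The other parts of mitochondrial translation were described from lists. Their counts are by the additive edgeR test, in which 30.1% of all genes fell and 30.2% rose. Of the 5 subunits with other names, Chchd1 (log2 with LPS -0.41 and -0.19), Ptcd3 (-0.17 and -0.27) and Aurkaip1 (-0.21 and -0.19) fell, while Gadd45gip1 (-0.36 and -0.15) and Dap3 (0.07 and -0.05) did not pass. Translation factors had medians of -0.24 in wild type and -0.09 in the knockout, with 5 of 14 lower. By the mean of both genotypes, the largest ratios were those of Guf1 (-0.88 and -0.97), Mtif2, the initiation factor (-0.61 and -0.71), and Taco1, an activator of mt-Co1 translation (-0.59 and -0.65). Mitochondrial tRNA synthetases had medians of -0.50 and -0.29, with 10 of 17 lower. Vars2 (-1.14 and -1.25) and Mars2 (-1.03 and -1.05), the enzymes for valine and methionine, were each at least 2-fold lower in both genotypes.

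Assembly factors of the ribosome had medians of -0.19 and -0.12, with 11 of 27 lower and 4 higher. For this list and those that follow, 30.1% of all genes fell and 30.2% rose in the same test. Mettl15 (-1.06 and -1.15), a methyltransferase of the small subunit rRNA, Mpv17l2 (-0.96 and -1.02) and Gtpbp10 (-1.01 and -0.88), a GTPase of large subunit assembly, had the largest mean ratios. Genes of mitochondrial DNA upkeep and transcription had medians of -0.14 and -0.28, with 3 of 12 lower and 1 higher. Twnk, the helicase, was at -0.62 and -0.38, and Slirp, a partner of Lrpprc in RNA stability, at 0.47 and 1.08 on 49 to 86 reads. Nrf1 (-0.82 and -0.59) was among 4 of 9 measured regulators of mitochondrial biogenesis that fell, and 3 rose: Esrra (0.25 and 0.21), Perm1 (2.59 and 3.16) and Myc, which went from 7 and 4 reads to 739 and 791. Over the 98 measured genes of these lists, those of mitochondrial DNA included, the genotype test passed 0 by edgeR and 0 by DESeq2. By edgeR 0.988% of all genes were higher and 0.928% lower. At an unadjusted p under 0.05 edgeR held 8 (13.2% of all genes) and DESeq2 1 (5% of all genes).

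The RNAs that this ribosome translates are made in the organelle. Of the 12 measured messenger RNAs of mitochondrial DNA, 5 rose in the additive test (30.2% of all genes rose) and 7 did not pass, with medians of 0.19 and 0.21. On total counts every ratio in a genotype moved down by the same amount. The median over all genes went from -0.0039 to -0.30 in wild type and from -0.02 to -0.33 in the knockout. Both medians of these mRNAs were then below 0, so their direction depends on the scaling. Their additive test under that scaling is not given. Mt-Co1 had 162360 and 168002 reads untreated and 178853 and 186955 with LPS (log2 0.45 and 0.42). Mt-Nd4 (0.38 and 0.35), mt-Nd6 (0.32 and 0.26), mt-Nd5 (0.30 and 0.19) and mt-Atp6 (1.19 and 0.23) also rose. Mt-Nd1 (-0.09 and 0.04), mt-Nd2 (-0.15 and 0.01) and mt-Cytb (-0.0035 and 0.08) did not pass. Neither did mt-Co2 (0.19 and 0.27), mt-Co3 (0.20 and 0.45), mt-Nd4l (-0.03 and 0.05) and mt-Nd3, the lowest of the 12 (48 and 70 reads untreated, 24 and 39 with LPS, log2 -0.69 and -0.58). The large subunit rRNA, mt-Rnr2, fell (5935 and 6729 reads untreated, 3423 and 3997 with LPS, log2 -0.49 and -0.48), and the small subunit rRNA, mt-Rnr1, had 3969 and 4013 reads untreated and 3207 and 3746 with LPS and did not pass (log2 -0.00043 and 0.17). These libraries were captured by poly(A) tail, and what part the tails of mitochondrial RNAs have in these values was not tested. Mt-Co2, mt-Co3 and mt-Atp6 had 304 to 773 reads, far fewer than mt-Co1, and are uncertain as levels.

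**Figure D4:**
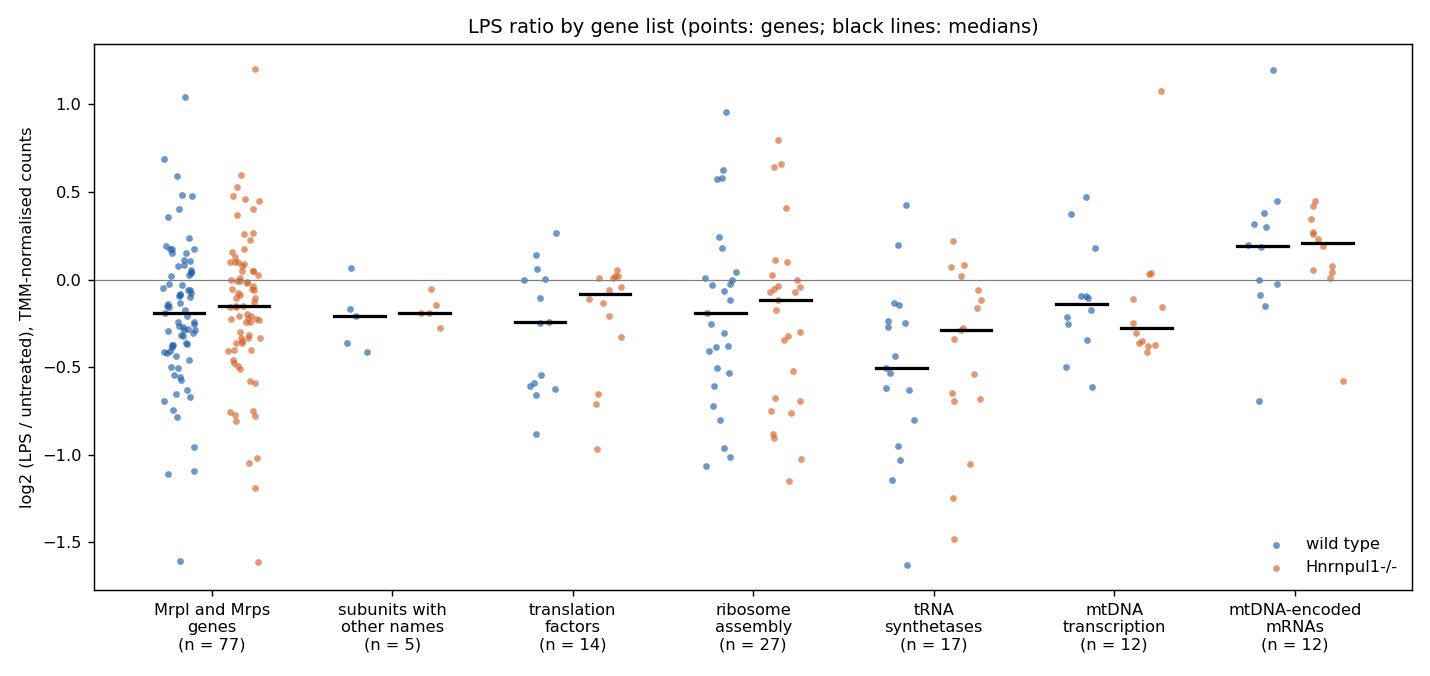
Log2 ratio of LPS to untreated (vertical axis) of each gene in wild type (blue) and Hnrnpul1-/- (orange) for the 77 members and 6 related lists, with the median of each as a black line; n is the number of genes measured. Under TMM scaling the medians are below 0 in every list of nuclear genes shown and above 0 for the mRNAs of mitochondrial DNA (0.19 and 0.21). On total counts the medians of these mRNAs are below 0 as well.

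Ribosomal proteins of the cytosol, the 81 measured protein-coding genes named Rpl or Rps, had medians of 0.08 in wild type and 0.25 in the knockout with LPS, above those of the members in each. On total counts both medians were below 0 and still above those of the members. The knockout to wild type median was -0.01 untreated and 0.12 with LPS. These genes have many near-identical pseudogenes, so their counts are less certain. The difference between the cytosolic and mitochondrial sets was not tested.

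Some members sit back to back with another gene, which starts within 1000 bases upstream of the member's start on the opposite strand. In this arrangement a pair of genes can share a promoter region. Across the 18 members with a measured protein-coding gene in that position, the mean LPS ratios of the pair had a Pearson's r of 0.52 and a Spearman's rho of 0.47 (across genes, with no test, from the same libraries). Pairs that overlap at their starts, such as Mrps11 and Mrpl46, were left out of this set. Mrpl30 starts 66 bases from Mitd1, which was higher with LPS as well (log2 1.60 and 1.45). Mrps18b starts 45 bases from Ppp1r10, also higher (0.45 and 0.59). Mrpl43 (-0.37 and -0.33) shares its start region with Twnk, and the gap is 116 bases. In contrast, Mrpl49 fell while Fau, a cytosolic ribosomal protein gene 137 bases away, was higher (0.33 and 0.61). Mrps18c (0.15 and 0.02) lies 29 bases from Helq (-0.45 and -0.23).

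Other features showed weak relations with the LPS response over the 77 members. The mean LPS log2 ratio had a Pearson's r of 0.08 with log2 gene length, 0.02 with log2 mean CPM and -0.25 with log2 FPKM in untreated wild type (Spearman's rho 0.08, -0.06 and -0.27), all as descriptions across genes. The span of 41 members overlaps another gene of the table and that of 37 does not. In these 37 the medians with LPS were -0.24 in wild type and -0.10 in the knockout. Processed pseudogenes at least 95% identical over 250 bases or more were found for 20 members. Mrpl27, Mrpl42 and Mrps18b are among them, and their copies had at most 64 reads in a library, few beside the 473 to 1668 reads that these genes had in the libraries given above.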

How the data were processed

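Poly(A)-selected RNA of 4 cultures was sequenced, 1 library per group. Per the submitters' processing notes, the authors used CASAVA 1.8, HISAT2 2.0.5 and featureCounts 1.5.0-p3 with the builds GRCm38 and mm10; the strand setting was not given in those notes. The deposited tables hold whole-number read counts per gene and FPKM values, both made by the authors, and coordinates and biotypes come from the same tables. Counts were scaled with TMM (edgeR 4.0.16, R 4.3.3) over the 11640 genes whose CPM averaged 1 or more. Each comparison was a log2 ratio between libraries, and its 95% interval was exact (Clopper-Pearson, conditional on the pair's summed count). A count of 0 entered as 3 where the other library had more than 3. There are no replicates, so intervals cover counting error only, and reads that are PCR copies of one another are not independent. The additive edgeR quasi-likelihood model (genotype and LPS, 1 residual degree of freedom, Benjamini-Hochberg over all genes) and its DESeq2 1.42.0 alternative were the tests. The intervals and the edgeR model were tried on simulated counts, and DESeq2's was not. In the simulation far fewer genes changed with LPS than here, by the same fold in both genotypes. It therefore does not show how the methods perform on these data, and its outcome is not given.

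The members and all gene lists were chosen with earlier results of these data known, so their direction is no independent evidence. Members named in the text follow a rule: the 6 highest and 6 lowest ratios past the counting interval in each comparison and the 6 highest and lowest mean LPS ratios, every member changed 2-fold, the 4 highest and lowest by FPKM, opposite signs, the 4 largest interactions, the Mrps18 paralogs and every member under the filter. Mrps2, Mrpl44, Mrpl54 and other members of counts that are spelled out were named after their values were seen. Of the lists, up to 3 genes of largest ratio, those changed 2-fold, and the genes of mitochondrial DNA are named; Esrra was named after its value was seen. The result of 1 listed gene is not reported here. The lists hold subunits with other names, translation factors (14 of 15 found), assembly factors, tRNA synthetases, mitochondrial DNA upkeep and transcription, mitochondrial mRNAs and rRNAs, biogenesis regulators, and cytosolic Rpl and Rps genes. Exon sharing was read from GENCODE vM21 (GRCm38), near copies from blastn 2.17.0 on its transcripts, and promoters from the RefSeq table (GRCm38.p6).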

Additional observations from a re-analysis of the deposited data

How the results depend on the processing

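The direction of the members' LPS medians held in both genotypes under every scaling, filter and unit tried. On total counts the median was -0.49 in wild type and -0.46 in the knockout, and that of all genes -0.30 and -0.33. By the counting interval 5 and 5 members were then above 0 and 65 and 65 below. At least 2-fold higher were 0 and 0, and 6 and 9 were lower. All genes shifted with them, and their shares by the interval and at 2-fold under this scaling are not given, so these counts are not set against them. In the additive LPS test 3 members were then higher and 60 lower, against 18.1% and 49.7% of all genes. Under this scaling the ratio of Mrpl1 in wild type became -0.11 and that of Mrps28 in the knockout -0.083. Other scalings and filters moved the knockout LPS median to -0.13 (DESeq2 size factors), -0.13 (no filter), -0.12 (TMM on protein-coding genes alone) and -0.11 (deposited FPKM), and the wild-type median to -0.22 (mean CPM of at least 10). Without members that overlap another gene (37 left), the LPS medians were -0.24 and -0.10, with 7 and 6 members above, 22 and 18 below, and 1 and 1 at least 2-fold lower; the genotype medians were -0.048 untreated and 0.039 with LPS, with 2 and 6 above and 9 and 6 below. Fewer members enter these counts by construction. Scaling was unchanged here, and with LPS 37% and 37.4% of all genes were above and 36.3% and 38.2% below. At least 2-fold lower were 10.1% and 12% of all genes. By genotype 15.9% and 20.2% of all genes were above and 15.3% and 20.1% below. A 1.5-fold rule gave 3 higher and 10 lower in wild type and 2 and 10 in the knockout, as given above with the shares of all genes. DESeq2 called 19 members lower with LPS, all among the 30 of edgeR, and 6 higher, all among its 9. Untreated, members above the interval in the knockout numbered 3 with no filter, with the filter at 10 CPM and with TMM on protein-coding genes. Mrps30 and Mrpl23, whose intervals only just exclude 0, were no longer among them. With LPS 9 were below under TMM on protein-coding genes. The shares of all genes by the interval under these settings are not given either. With no filter 1 member, Mrps6, was lower by genotype in the additive test, as were 244 of the 21612 genes tested. The cause of these shifts was not tested. No paired analysis was possible because each group holds 1 library. For the same reason no library could be left out: the additive model would have no residual degree of freedom. Counting error limits these ratios: the counting interval reached 0.12 to 0.15 to either side of the ratio (log2, median over members). The SD of the members' genotype ratios was 0.13 untreated and 0.14 with LPS. The reach of the interval is wider than the SD of counting error, so these are not like measures. How much of the genotype spread is counting error was not tested.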

Other observations

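Several members kept nearly the same level in all 4 libraries; the ones given here were chosen after their values were seen. Mrpl20, a large subunit protein with a bacterial counterpart, had 107, 111, 105 and 110 CPM in untreated wild type, untreated knockout, wild type with LPS and knockout with LPS. Mrpl22, which lines the exit tunnel of the large subunit, had 41.9, 40.5, 39.1 and 40.5 CPM. Mrpl57 had 57.2, 54.3, 53.6 and 52.3 CPM, while Ska3, a gene of chromosome segregation that starts 49 bases away on the other strand, had 708, 792, 148 and 191 reads (log2 with LPS -1.95 and -1.79). Mrpl2 (log2 -0.55 and -0.49) starts 207 bases from Klc4 (-2.12 and -1.89), and Mrpl51 (-0.46 and -0.58) starts 100 bases from Ncapd2 (-1.84 and -1.75), a condensin subunit gene. In these 3 pairs the neighbour changed by more than 3-fold and the member by less than 1.5-fold.

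Mrps11 and Mrpl46 are members that overlap each other on opposite strands. Mrps11 had 29.3, 29.5, 26.3 and 23.4 CPM (log2 with LPS -0.15 and -0.33), and Mrpl46 had 43.6, 39.0, 37.8 and 41.1 CPM (-0.21 and 0.07). Processed pseudogene copies of Mrpl48, Mrps10 and Mrps33 held 99 to 147, 133 to 190 and 72 to 95 reads per library, more than the other copies found, and whether reads of those members were counted at the copy was not tested.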
